A study of Mus musculus with 2 samples.

Results

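Aminoacyl transfer RNA synthetases were followed here as one gene family in single cells of 2 mouse melanoma lines. The members are 36 named synthetase genes, of which 20 encode the cytosolic enzymes and 16, with symbols ending in 2, the mitochondrial ones. All 36 had a row in the deposited UMI counts, out of 14959 genes in all. B16F0 is labelled the parental line and B16F10 a subclone of it with high metastatic capacity. Both are established cultured lines that no label describes as treated, and a single library of polyadenylated RNA stands for each. A unique molecular identifier (UMI) marks 1 captured transcript near its 3′ end, and levels are given as CPM, the counts scaled to a total of 1000000 UMIs.

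A synthetase joins one amino acid to its transfer RNA, the step that fixes which amino acid a codon stands for. The cytosol and the mitochondrion carry out this step with separate enzymes, nearly all encoded by separate nuclear genes. Gars and Kars are exceptions, since each gives both forms of its enzyme from one gene, and the mitochondrion makes glutaminyl transfer RNA through an amidotransferase of Qrsl1, Gatb and Gatc. Several cytosolic enzymes (Eprs, Dars, Iars, Kars, Lars, Mars, Qars and Rars) sit in one complex held together by the scaffold proteins Aimp1, Aimp2 and Eef1e1. Uncharged transfer RNA activates the kinase Eif2ak4 (GCN2). Its phosphorylation of eIF2 raises translation of ATF4, a transcription factor of amino acid transport and synthesis genes and of many cytosolic synthetase genes.

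ATF4 binds with C/EBP partners to elements with the core TGATGNAA, so the promoters of the members were read for that core on both strands. The RefSeq promoter table of build GRCm38.p6, 250 bases before to 50 bases after a gene start, held 13 of the 20 cytosolic and 14 of the 16 mitochondrial genes. Cars, Hars, Lars, Nars, Rars, Vars, Wars, Hars2 and Pars2 had no entry. The core was present in 5 of the 13 cytosolic genes (38.5%), in 0 of the 14 mitochondrial genes, and in 10 of 28 genes (35.7%) of a list of ATF4 programme genes without synthetases. Among all 27025 genes of the table, 4.51% held it. The E-box CACGTG, which MYC proteins bind and which is the same on both strands, was in 4 of the 13 cytosolic genes, 1 of the 14 mitochondrial genes and 8.09% of all genes. These matches describe letters in a window and are not measured binding.

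Each sequence below is a window of 30 bases around a match in the promoter of a cytosolic gene, read 5′ to 3′ on the gene's strand, with the match in capitals. TTGCATCA and TTTCATCA are the core on the opposite strand. They are shown for 4 of the 5 genes, Gars, Iars, Tars and Yars, because no mitochondrial promoter in the table had this feature.
Gars: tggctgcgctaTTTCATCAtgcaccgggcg
Iars: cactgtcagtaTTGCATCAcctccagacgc
Tars: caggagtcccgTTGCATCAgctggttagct
Yars: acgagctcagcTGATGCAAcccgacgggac

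The window of Gars lies at chr6:55037960-55037989 and that of Iars at chr13:49682126-49682155. Those of Tars and Yars lie at chr15:11399655-11399684, on the minus strand, and at chr4:129189895-129189924. GENCODE places the first base of Yars at 129189760, upstream of the RefSeq start used here. Over all GENCODE transcripts of each gene, the Gars window had 0 of its 30 bases in the gene, the Iars window all 30 in untranslated exon and the Tars window 11. The Yars window had 13 bases in untranslated and 17 in coding exon. Counted from the RefSeq start, the matches begin 30 bases before it in Gars, 15 bases before it in Tars, and at bases 8 and 4 after it in Iars and Yars. For Gars, the most abundant member in B16F0, the 250 bases before the start (plus strand, chr6:55037751-55038000) were as follows, with the match again in capitals.
Gars promoter: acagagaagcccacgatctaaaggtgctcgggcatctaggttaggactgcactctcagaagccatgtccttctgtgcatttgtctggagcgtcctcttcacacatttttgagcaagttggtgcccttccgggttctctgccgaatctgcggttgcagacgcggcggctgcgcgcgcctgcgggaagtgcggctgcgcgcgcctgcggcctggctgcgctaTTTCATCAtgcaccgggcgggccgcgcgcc

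The B16F0 library held 2582 cells and 94268486 UMIs, and the B16F10 library 1574 cells and 56748682 UMIs. Median UMIs per cell were 35503.5 and 34950.5. The authors' cycling class took 54.6% of the B16F0 cells and 78.1% of the B16F10 cells, mitochondrially encoded transcripts took 5.41% and 6.78% of the UMIs, and 6 cell barcodes occurred in both libraries. All 7 melanocyte markers of a fixed list (Mitf, Dct, Tyrp1, Tyr, Pmel, Mlana and Sox10) were counted, at 7852 CPM in sum in B16F0 and 7733 CPM in B16F10. The 6 of 10 fibroblast markers that had a row summed to 6.60 and 9.71 CPM, and the 3 of 10 macrophage markers to 9.60 and 6.84 CPM. With 1 library per line no difference has a replicate check. Intervals are 95% intervals that cover counting error only, and a member counts as higher or lower from 1.5-fold, if its larger value is 10 CPM or more.

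Cytosolic synthetase transcripts were roughly an order of magnitude more abundant in sum than the mitochondrial ones in both lines. The 20 cytosolic genes summed to 1621 CPM (1613 to 1630) in B16F0 and 1519 CPM (1508 to 1529) in B16F10. The 16 mitochondrial genes summed to 149.6 CPM (147 to 152) and 165 CPM (162 to 168). Because the method tags 1 end of each transcript, a CPM value is not divided by gene length, but capture can still differ between genes.

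Gars, Eprs, Sars and Nars, which charge glycine, glutamate with proline, serine and asparagine, gave 51.8% of the cytosolic UMIs in B16F0 and 48.1% in B16F10. Gars stood at 253 CPM (249.8 to 256) in B16F0 and 207 CPM (204 to 211) in B16F10, ahead of Eprs at 218 CPM (215 to 221) only in B16F0. In B16F10 Eprs was highest at 218 CPM (214 to 222). Aars came next, at 80.5 and 83.0 CPM, and every other cytosolic gene lay between 18.6 and 76.5 CPM. Mars and Farsa, the methionine enzyme and the catalytic subunit of the phenylalanine enzyme, were the lowest, with 23.0 CPM (22.1 to 24.0) and 25.5 CPM (24.5 to 26.6) in B16F0. Farsb, the other subunit of that enzyme, was higher at 53.8 CPM.

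**Figure D1:**
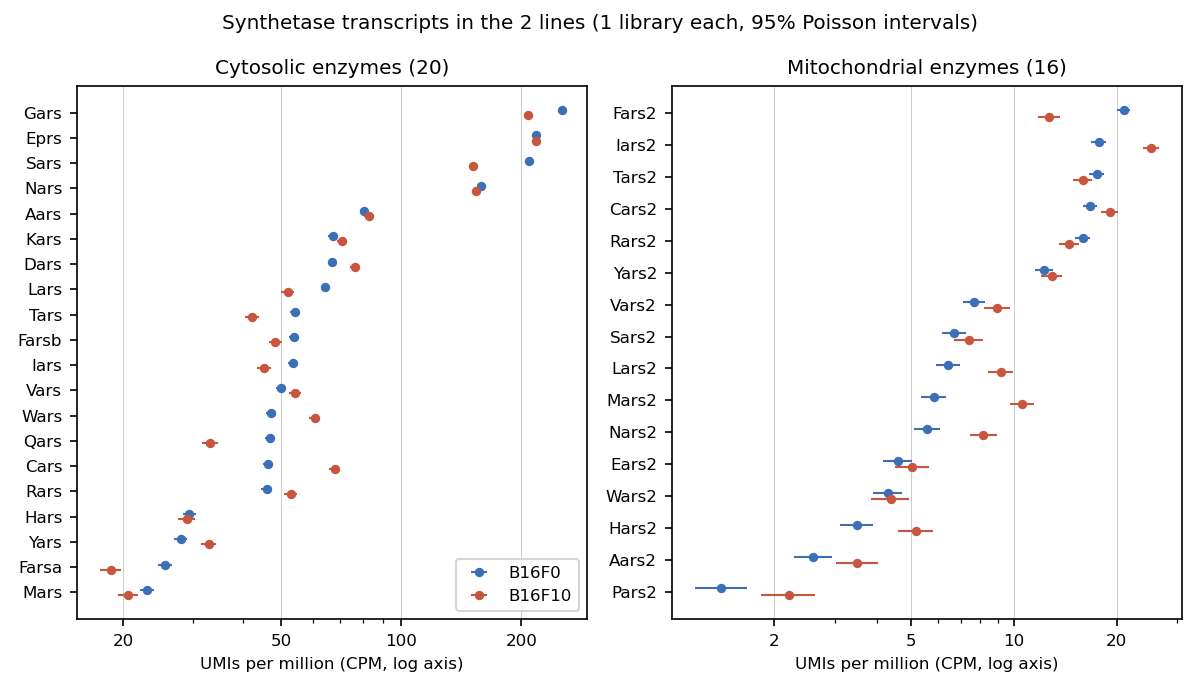
CPM (log axis) of each cytosolic and mitochondrial synthetase gene in B16F0 (blue) and B16F10 (red), sorted by the B16F0 level. Points are 1 library each and bars are 95% Poisson intervals, so 4 cytosolic genes above 150 CPM stand apart from the rest, which lie under 90 CPM.

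Among the mitochondrial genes, Fars2 was highest in B16F0 at 20.95 CPM (20.04 to 21.9) and Iars2 in B16F10 at 25.2 CPM (23.9 to 26.5). Pars2, the proline enzyme, was lowest in both lines, with 132 UMIs in B16F0 and 125 in B16F10 (1.40 and 2.20 CPM). Neighbours in the lower order, such as Ears2 at 4.58 CPM (4.16 to 5.04) and Wars2 at 4.30 CPM (3.89 to 4.74) in B16F0, overlapped in their counting intervals. Lars2 carries a stretch that resembles ribosomal RNA in the mouse, and its count of 608 UMIs in B16F0 (6.45 CPM) did not stand apart from the group.

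Detection per cell followed the levels. After each cell was thinned to 19718 UMIs, 2323 B16F0 cells and 1502 B16F10 cells remained. A UMI of Gars was seen in 97.5% (exact interval 96.8 to 98.1) and 96.4% (95.3 to 97.3) of them, against 99.1% and 99.0% of all cells without thinning. Mars was seen in 36.5% (34.6 to 38.5) and 32.6% (30.3 to 35.1), and Pars2 in 2.88% (2.24 to 3.65) and 3.33% (2.48 to 4.37). No cell type that should lack a synthetase exists here, so a background share was not measured.

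The comparison of B16F10 with B16F0 asks whether the metastatic subclone differs from its parent in these enzymes. No cytosolic gene reached 1.5-fold in either direction, whereas 11.3% of the 7425 genes at 10 CPM were higher at that fold and 6.14% lower. The cysteine enzyme gene Cars came nearest, at 46.3 CPM (44.9 to 47.7) in B16F0 and 68.0 CPM (65.8 to 70.1) in B16F10, giving a log2 ratio of 0.55 (0.49 to 0.62). Wars, the tryptophan enzyme, followed at 47.1 and 60.6 CPM, a log2 ratio of 0.36 (0.30 to 0.43), and Yars, the tyrosine enzyme, at 27.9 and 32.8 CPM, a log2 ratio of 0.23 (0.15 to 0.32).

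On the lower side stood Qars, the glutamine enzyme, with 46.7 CPM (45.4 to 48.1) in B16F0 and 33 CPM (31.5 to 34.6) in B16F10, giving a log2 ratio of -0.50 (-0.58 to -0.42). Sars had 209.8 and 151 CPM, a log2 ratio of -0.47 (-0.51 to -0.43), and Farsa had 25.5 and 18.6 CPM, a log2 ratio of -0.46 (-0.56 to -0.35). Under trimmed mean (TMM) or median-of-ratios scaling, which shift the median of all genes by -0.10 and -0.11, Qars passed 1.5-fold at -0.60 and -0.60. At a smaller fold, a ratio of 5 to 4, 2 cytosolic genes were higher (Cars and Wars) and 4 lower (Farsa, Qars, Sars and Tars), beside 30.1% and 14.5% of all genes at 10 CPM.

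The remaining cytosolic log2 ratios ran from -0.35 for Tars to 0.20 for Rars, with Eprs at -0.00 (-0.03 to 0.03). The median of the 20 was -0.03, beside 0.13 for all genes at 10 CPM, and 5 of the 20 lay above that median of all genes. Their sum was lower in B16F10 by a log2 ratio of -0.09 (-0.11 to -0.08), and it was also lower under every scaling tried, from -0.20 to -0.06. The 8 enzymes of the multisynthetase complex ran from -0.50 for Qars to 0.20 for Rars with a median of -0.08, and the other 12 from -0.47 for Sars to 0.55 for Cars with a median of -0.03.

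The mitochondrial genes spread more widely, on lower counts. Of 7 that reached 10 CPM, 1 was higher and 1 lower at 1.5-fold, beside 11.3% and 6.14% of all genes at 10 CPM. Mars2, the mitochondrial methionine enzyme, was higher in B16F10, at 5.83 CPM (5.36 to 6.34) against 10.6 CPM (9.76 to 11.5), giving a log2 ratio of 0.86 (0.69 to 1.03). Fars2, the mitochondrial phenylalanine enzyme, was lower, at 20.95 CPM against 12.7 CPM (11.8 to 13.7), giving a log2 ratio of -0.72 (-0.84 to -0.60). Both kept their side of 1.5-fold under each scaling, but Mars2 did not do so within every class of cells, as given below. Iars2 was at 17.7 CPM and 25.2 CPM, a log2 ratio of 0.51 (0.41 to 0.61). Tars2 and Rars2 were both at -0.13, with intervals of -0.25 to -0.02 and -0.26 to -0.01.

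The median of the 7 was 0.07. Of the 9 members under 10 CPM, Pars2 had a log2 ratio of 0.65 (0.29 to 1.02) and Hars2 of 0.57 (0.34 to 0.81), on 125 and 294 UMIs in B16F10. The other 7 lay between 0.02 for Wars2 and 0.55 for Nars2, so all 9 were above 0 at total-count scaling. In sum the 16 genes had a log2 ratio of 0.14 (0.10 to 0.18) between the lines, close to the 0.13 of the median gene, and of 0.04 under either TMM or median-of-ratios scaling.

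**Figure D2:**
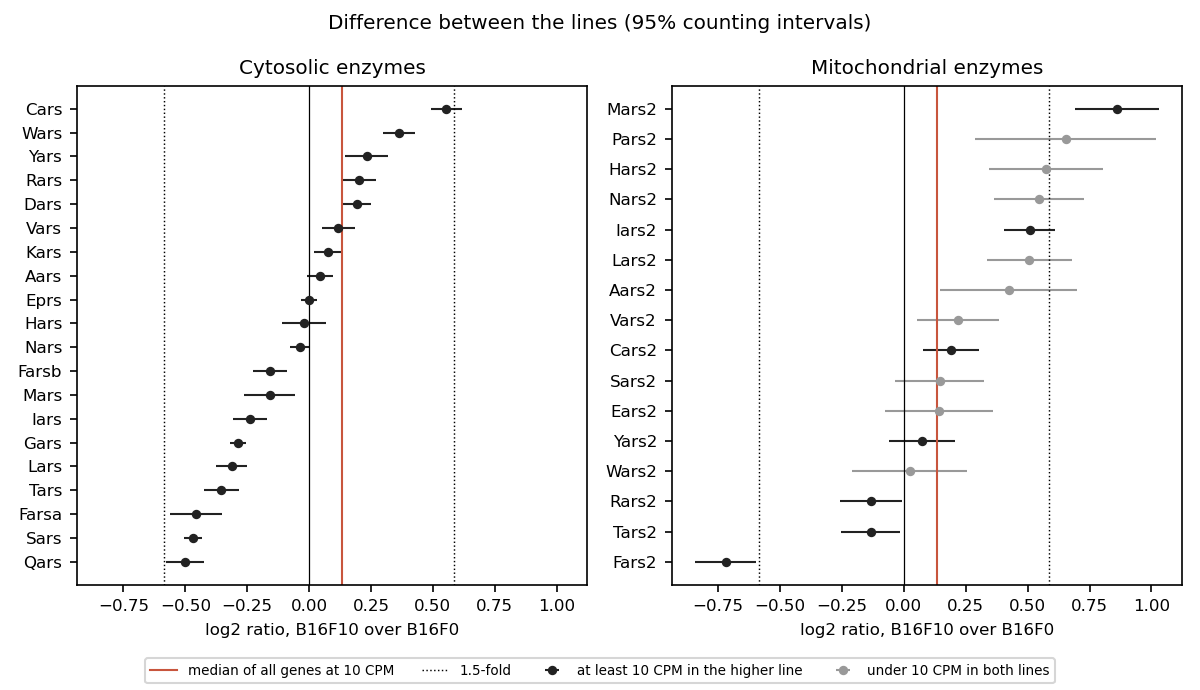
Log2 ratio of CPM, B16F10 over B16F0, for each synthetase gene with its 95% counting interval; grey marks members under 10 CPM in both lines. Dotted lines mark 1.5-fold and the red line the median of all genes at 10 CPM (0.13), and only Mars2 and Fars2 among the members at 10 CPM lie outside the dotted lines.

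Cars lies on chromosome 7 (143557230 to 143600090), Wars on chromosome 12 (108860030 to 108894174), Qars on chromosome 9 (108507706 to 108515941) and Sars on chromosome 3 (108424865 to 108445209) of GRCm38. Mars2 lies on chromosome 1 (55237177 to 55248470) and Fars2 on chromosome 13 (36117412 to 36726280). Each is annotated as protein coding, and a count covers the whole gene.

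Genes that work with the synthetases were read from fixed lists, whose counts stand beside the 11.3% of all genes higher and 6.14% lower at 1.5-fold and the median of 0.13 given above. Of the scaffold genes, Eef1e1 was lower in B16F10, at 183 against 115 CPM, a log2 ratio of -0.67 (-0.71 to -0.63), while Aimp1 had -0.07 (-0.12 to -0.03) and Aimp2 -0.05 (-0.14 to 0.03). Dtd1, which clears D-amino acids from transfer RNA, was lower too, at 47.0 against 28.4 CPM, and Pstk, the kinase of seryl transfer RNA for selenocysteine, had 34.6 and 45.7 CPM. In that list of 13 scaffold genes and relatives at 10 CPM, 0 were higher and 2 lower at 1.5-fold, with a median of -0.07.

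Further along the path of a transfer RNA, the counts again stand beside 11.3% of all genes higher, 6.14% lower and a median of 0.13. There 2 of 31 transcription, processing and export genes were higher and 3 lower, with a median of 0.06. Gtf3c1, a subunit of a general transcription factor of RNA polymerase III, had a log2 ratio of 0.71. Pop5 and Rpp21, subunits of the RNase P enzyme that trims the leader, both had -0.61. Of 32 modification genes 3 were higher and 2 lower, among them the methyltransferase genes Trmt10a at 1.23 and Trmt1 at -0.75. Thumpd1, at 0.57, stayed just under 1.5-fold. The 10 cytosolic elongation and termination genes had none past 1.5-fold and a median of 0.05. Eef1a1, which delivers charged transfer RNA to the ribosome, had 7831 and 5273 CPM, a log2 ratio of -0.57, followed by Eef1g at -0.48 and Gspt1 at 0.47. Among 13 genes of a list of mitochondrial translation and transcription factors, also with none past 1.5-fold, Tufm, the mitochondrial counterpart of Eef1a1, had 0.53, Tfb2m 0.39 and Tsfm -0.39.

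On the amino acid sensing side, again beside 11.3% of all genes higher, 6.14% lower and a median of 0.13, the lists were as follows. Of 12 eIF2 kinase and amino acid sensing genes at 10 CPM, 2 were higher, 0 lower, with a median of 0.17. These were Ppp1r15b, a subunit of the eIF2 phosphatase, at 0.63 and Mtor at 0.75, which had 10.0 and 16.8 CPM. Gcn1l1, an activator of Eif2ak4, had 0.38 and Eif2s1 0.33, and Eif2ak4 itself had 10.8 and 10.2 CPM. In the ATF4 list of 31 genes at 10 CPM, 1 was higher and 9 lower with a median of -0.12. Of those at 20 CPM or more in the higher line, Slc7a11, Asns and Herpud1 had the largest differences, at -2.02, -1.30 and -0.96. Of 6 MYC family and partner genes, Mga was higher at 0.75 and Mxd4 lower at -1.50, while Max had 0.24 and Myc 14.0 and 15.1 CPM.

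The lines also differ in the mix of the authors' classes, so the same ratios were read within classes that both lines fill. The log2 ratio of the summed cytosolic genes was -0.11 (-0.12 to -0.09) within cycling cells and -0.08 (-0.10 to -0.05) within non-cycling cells. In cycling cells no cytosolic gene passed 1.5-fold, beside 9.00% of genes higher and 5.97% lower, and in non-cycling cells Wars did at 0.59, beside 11.7% higher and 7.35% lower. In cluster C3 the sum had -0.12 (-0.15 to -0.10), with 0 genes higher and 2 lower (Farsa at -0.75 and Mars at -0.73), beside 10.0% and 9.32% of genes. In cluster C4 it turned to 0.12 (0.09 to 0.15), where Wars had 51.2 and 117 CPM and a log2 ratio of 1.19, Rars had 0.59, and Farsb had -0.60. For the 7653 genes at 10 CPM in that comparison, 19.0% were higher and 14.0% lower.

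Within trajectory state 1, which held 165 B16F0 and 1254 B16F10 cells, the ratio was -0.33 (-0.36 to -0.30), and Mars, Gars and Sars were lower at -0.71, -0.64 and -0.60 and no member was higher, beside 7.47% of genes lower and 6.65% higher. In state 7 the ratio was -0.19 (-0.21 to -0.16), with 3 genes lower (Farsa at -0.66, Mars at -0.63 and Tars at -0.59) and 0 higher, beside 7.38% and 8.59%. The summed ATF4 list had -0.15 in C3, 0.15 in C4, -0.59 in state 1 and -0.26 in state 7, and its part in the synthetase ratios was not tested. The summed mitochondrial genes had 0.13 within cycling cells and 0.02 (-0.06 to 0.10) within non-cycling cells. In state 1 that value was -0.11 (-0.20 to -0.02), so the sign seen over all cells did not hold there. The mitochondrial sum was also below 0 in C3, at -0.08 (-0.17 to 0.01), and in state 7, at -0.06. In C4 it had 0.02 (-0.08 to 0.12). Mars2 was higher at 1.5-fold within cycling cells, at 0.87 (0.67 to 1.07), and within C4, at 0.73 (0.32 to 1.13). It stayed under 1.5-fold within non-cycling cells at 0.36, C3 at 0.24, state 1 at 0.31 and state 7 at 0.04 (-0.42 to 0.50). In each of those classes its interval included 0. How far the mix of classes shapes the Mars2 ratio over all cells was not tested. Fars2 was lower at 1.5-fold in each of the 6 classes compared, from -0.68 in non-cycling cells to -1.15 in C4.

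Cycling cells were set against non-cycling cells of the same line, by the authors' class. In B16F0 no cytosolic gene reached 1.5-fold either way, where 9.89% of 7197 genes were higher in cycling cells and 1.43% lower. Mars, the methionine enzyme, had 19.4 CPM (18.1 to 20.8) in non-cycling and 25.8 CPM (24.4 to 27.2) in cycling B16F0 cells, a log2 ratio of 0.41 (0.28 to 0.54). Vars, the valine enzyme, had 42.4 and 55.7 CPM, a log2 ratio of 0.39 (0.31 to 0.48), and Yars had 0.30 (0.19 to 0.42). Qars went the other way, with 55.5 CPM (53.2 to 57.8) in non-cycling and 39.96 CPM (38.3 to 41.7) in cycling cells, a log2 ratio of -0.47 (-0.56 to -0.39). Rars, the arginine enzyme, had -0.27 and Sars -0.17. At the smaller fold Mars and Vars were higher and Qars lower, beside 20.5% and 6.89% of all genes. The median of the 20 was 0.07, beside 0.06 for all genes.

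In B16F10, 2 cytosolic genes were higher in cycling cells and 0 lower, beside 13.2% and 4.26% of 7448 genes. Mars had 13.4 CPM (11.4 to 15.8) and 22.4 CPM (21.02 to 23.8), giving a log2 ratio of 0.74 (0.49 to 0.99). Kars, the lysine enzyme, had 50.3 CPM (46.3 to 54.7) and 76.0 CPM (73.5 to 78.6), giving a log2 ratio of 0.59 (0.47 to 0.73), which at TMM scaling lay just under 1.5-fold at 0.58. Vars had 0.39. Qars was again the lowest, with 42.4 and 30.7 CPM and a log2 ratio of -0.46 (-0.61 to -0.31), followed by Sars at -0.38 (-0.45 to -0.31) and Rars at -0.25 (-0.37 to -0.12). At the smaller fold 3 were higher and 2 lower, beside 27.8% and 12.2% of all genes. The median was 0.07, beside 0.10 for all genes.

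Side by side, 7 of the 20 cytosolic genes had intervals above 0 in both lines (Cars, Hars, Kars, Mars, Tars, Vars and Yars) and 3 below 0 in both (Qars, Rars and Sars). The share of all genes with such intervals was not counted, so these numbers have no background beside them. Wars alone had intervals on opposite sides, at 0.11 (0.02 to 0.20) in B16F0 and -0.21 (-0.33 to -0.09) in B16F10. With members on both sides of 0, the log2 ratio of the sum was 0.03 (0.02 to 0.04) in B16F0 and -0.00 (-0.03 to 0.02) in B16F10.

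The summed mitochondrial genes were higher in cycling cells of both lines, by a log2 ratio of 0.11 (0.07 to 0.16) in B16F0, from 143 to 155 CPM, and of 0.23 (0.15 to 0.31) in B16F10, from 145 to 169.8 CPM. Cars2, Mars2 and Sars2 had intervals above 0 in both lines, and no mitochondrial gene had intervals below 0 in both. The share of all genes was again not counted. Cars2 had log2 ratios of 0.32 and 0.53, and Sars2, under 10 CPM, of 0.41 and 0.89. Mars2 passed 1.5-fold in B16F10 at 0.78 (0.43 to 1.15), with 6.72 and 11.5 CPM, beside 13.2% of all genes at 10 CPM. The medians of the 6 and 7 genes at 10 CPM were 0.11 and 0.41.

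Cycling cells were deeper, with medians of 37356 against 33745 UMIs in B16F0 and 36316 against 30188.5 in B16F10, and had lower ribosomal protein shares, at 27.4% against 29.8% and 25.5% against 29.5%. With ribosomal protein and mitochondrially encoded genes left out of the total, the summed cytosolic ratio was -0.03 and -0.11, and the mitochondrial one 0.06 and 0.12. Genes of the transfer RNA path stood higher in cycling cells than the cytosolic synthetases did: the medians of the transcription, processing and export list were 0.21 and 0.29, and those of the modification list 0.16 and 0.30.

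**Figure D3:**
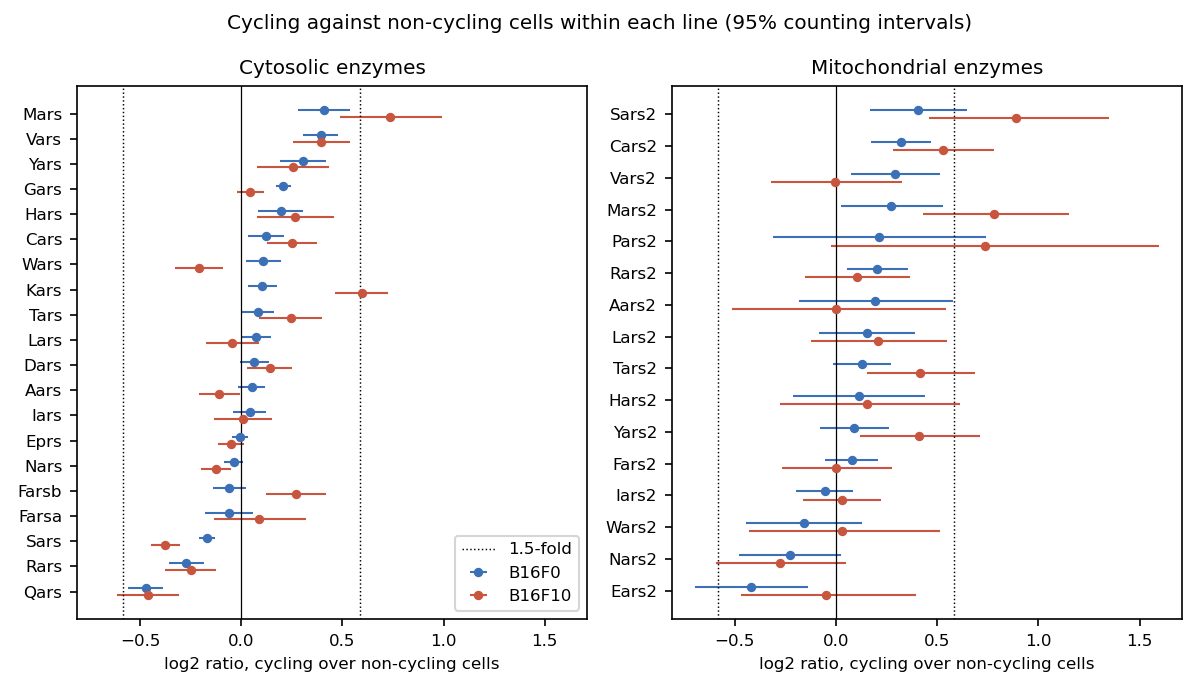
Log2 ratio of CPM, cycling over non-cycling cells, for each synthetase gene in B16F0 (blue) and B16F10 (red) with 95% counting intervals; dotted lines mark 1.5-fold. Among the cytosolic genes Mars is highest and Qars lowest in both lines, and the intervals of Wars lie on opposite sides of 0.

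The authors' clusters and trajectory states were made from these same cells, so the following levels describe them and test nothing. Clusters with fewer than 50 cells of a line were left out. In B16F0 the summed cytosolic genes were lowest in C1, at 1501 CPM (1487 to 1515), with 1576 CPM in C2, 1707 CPM in C3 and 1764 CPM (1745 to 1783) in C4. In B16F10 they were at 1445 CPM (1433 to 1457) in C5, 1568 CPM in C3 and 1914 CPM (1880 to 1948) in C4. C4 held the highest level of 11 of the 20 genes in B16F0 and of 14 in B16F10, and C1 the lowest of 12 in B16F0. The share of all genes that were highest or lowest in these clusters was not counted, so these numbers have no background beside them. Qars ran the other way, highest in C1 and lowest in C4 of B16F0, and lowest in C4 of B16F10 too.

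C2, C4 and C5 were nearly all cycling cells (94.4% or more), whereas 26.8% of C1 and 11.1% of C3 cells in B16F0 were in the cycling class. C4 was therefore set against C2 in B16F0, and C3 against C1, which pairs the mostly cycling and the mostly non-cycling clusters. The 4 cytosolic genes with the highest ratios in C4 over C2 were Dars at 0.46, Farsb at 0.45, Eprs at 0.40 and Rars at 0.40, and none reached 1.5-fold, beside 5.46% of 7292 genes higher and 2.43% lower. For C3 over C1, Rars was higher at 0.65 (0.53 to 0.76), with 39.2 and 61.4 CPM, the single call, beside 5.47% of 6986 genes higher and 3.08% lower, and Eprs had 0.45 and Dars 0.40. The summed cytosolic ratio was 0.16 (0.14 to 0.18) in the first pair and 0.19 (0.17 to 0.20) in the second, and 16 of the 20 genes were above 0 in each. The median of all genes at 10 CPM was 0.01 and 0.02, and 16 of the 20 lay above it in each pair.

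**Figure D4:**
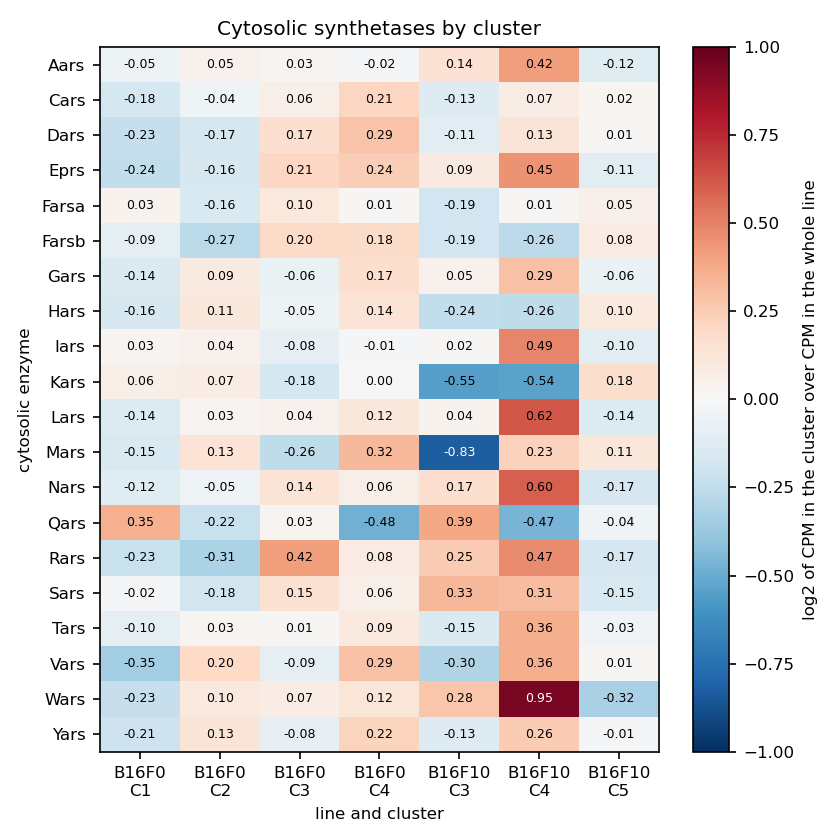
Log2 of the CPM in a cluster over the CPM in all cells of that line, for the 20 cytosolic genes in the 7 combinations of line and cluster with at least 50 cells. Red is higher and blue lower than the line as a whole; the B16F10 C4 column is the reddest, led by Wars at 0.95, and Qars is blue in C4 of both lines.

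In B16F10, the 212 cells of C4 were set against the 1045 cells of C5, the other mostly cycling cluster. Wars had 48.4 CPM (46.2 to 50.6) in C5 and 117 CPM (108 to 125) in C4, a log2 ratio of 1.27 (1.15 to 1.39). Nars had 137 and 233 CPM, a log2 ratio of 0.77 (0.68 to 0.85), and Lars had 47.2 and 79.8 CPM, a log2 ratio of 0.76 (0.62 to 0.90). Rars had 0.64 and Iars 0.59. These 5 were higher at 1.5-fold, beside 12.0% of 7606 genes.

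Kars was lower in C4, at 80.3 CPM (77.5 to 83.1) in C5 and 48.9 CPM (43.6 to 54.6) in C4, a log2 ratio of -0.72 (-0.89 to -0.55), beside 11.0% of genes. Qars had -0.42, Hars -0.35 and Farsb -0.34. At the smaller fold 11 of the 20 were higher and 4 lower, beside 27.7% and 23.9% of all genes. The median of the 20 cytosolic genes was 0.35, beside 0.04 for all genes. The 5 genes with the core in their promoter ran from 0.27 to 0.59 with a median of 0.39, the 8 with an entry and no match from -0.72 to 0.55 with a median of 0.04, and the 7 with no entry had a median of 0.64. In C4 over C2 of B16F0 these medians were 0.07, 0.21 and 0.09.

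Summed over the family, the C4 over C5 ratio was 0.40 (0.38 to 0.43) for the cytosolic genes and 0.00 (-0.09 to 0.10) for the mitochondrial genes. Among 9 mitochondrial genes at 10 CPM, Vars2 was higher at 0.75 (0.40 to 1.09) on 89 UMIs in C4, and Cars2 and Yars2 were lower at -0.62 and -0.83, on 89 and 52 UMIs. At 1.5-fold, 12.0% of all genes at 10 CPM were higher and 11.0% lower. C4 cells of B16F10 were shallower than C5 cells, with medians of 29693 and 37725 UMIs, and had a mitochondrially encoded share of 8.43% against 6.20%. With only cells of at most 8% mitochondrially encoded UMIs, the cytosolic ratio was 0.48, while Vars2 changed sign to -0.07. Under TMM scaling the cytosolic ratio was 0.32 and 3 genes in place of 5 were higher, and without Wars it was 0.36.

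**Figure D5:**
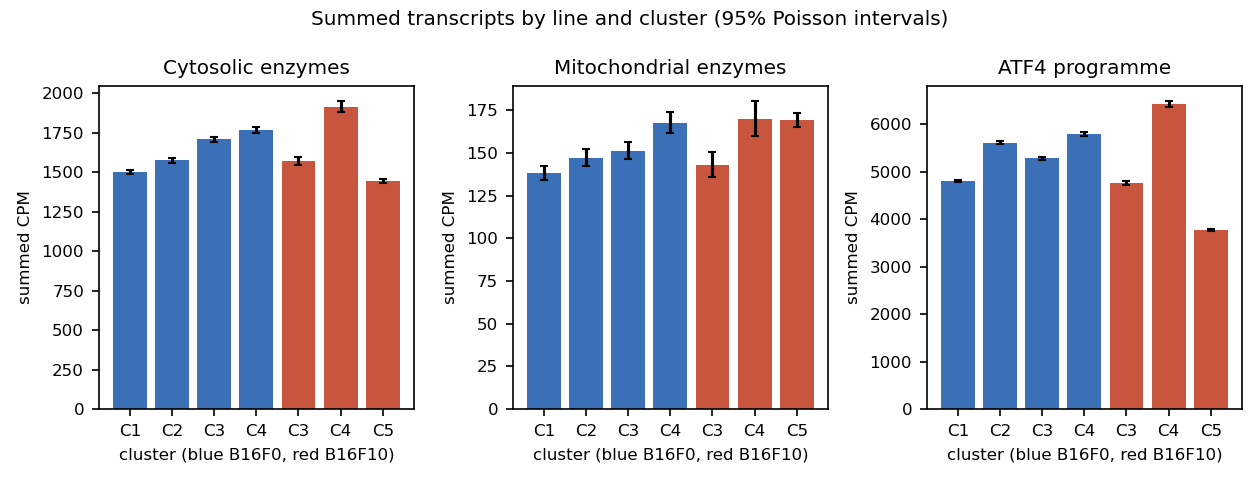
Summed CPM of the 20 cytosolic, 16 mitochondrial and 33 ATF4 programme genes by cluster in B16F0 (blue) and B16F10 (red), with 95% Poisson intervals and axes that start at 0. C4 of B16F10 is the tallest bar in the cytosolic and ATF4 panels (1914 and 6419 CPM) and C5 the lowest (1445 and 3770.4 CPM), whereas the 2 are level in the mitochondrial panel (169.8 and 169.3 CPM).

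The ATF4 list, which shares no gene with the synthetases, had the same extremes in B16F10, with 3770.4 CPM (3751 to 3790) in C5, 4763 CPM in C3 and 6419 CPM (6357 to 6481) in C4. In C4 over C5, 21 of its 30 genes at 10 CPM were higher and 0 lower, with a median of 0.82. Of all genes at 10 CPM, 12.0% were higher and 11.0% lower, with a median of 0.04. Ppp1r15a, the inducible subunit of the eIF2 phosphatase, had 35.6 and 250.5 CPM (2.81), Aldh1l2, a mitochondrial folate enzyme, 20.8 and 126 CPM (2.60), and Nupr1, a stress-induced nuclear protein, 77.9 and 431 CPM (2.47). Asns, the asparagine synthetase and a classic ATF4 target, had 94.5 and 104 CPM, a log2 ratio of 0.14 (0.02 to 0.26), and Phgdh, the first enzyme of serine synthesis, had 268 and 200.1 CPM, a log2 ratio of -0.42. Both were picked out after their values were seen.

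Along the trajectory states of B16F0, the summed cytosolic genes ran from 1481 CPM (1464 to 1498) in state 6 to 1903 CPM (1869 to 1937) in state 1, with 1581 to 1743 CPM in states 2, 4, 5 and 7. State 6 held the lowest level of 13 of the 20 cytosolic genes, and Qars had its highest there. The share of all genes with their lowest level in state 6 was not counted. Cycling cells made up 2.11% of state 6 and 100% of state 1, with ribosomal protein shares of 30.4% and 25.9%. How far these differences shape the levels was not tested. The mitochondrial sums ran from 134 CPM in state 6 to 183 CPM (172 to 193) in state 1. The ATF4 list ran from 4654 CPM in state 6 to 6231 CPM in state 1. In B16F10, states 1 and 7 had cytosolic sums of 1516 CPM (1505 to 1527) and 1529.7 CPM (1506 to 1554), whose intervals overlapped.

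Cell by cell, with every cell thinned to the same depth, the cytosolic sum had a mean of 32.2 UMIs (SD 9.60 over cells) in B16F0 and 30.4 UMIs (SD 9.79) in B16F10. Its Fano factor, the variance over the mean, was 2.86 and 3.16, where independent counting gives 1. The mitochondrial sum, with means of 2.97 and 3.29 UMIs, had Fano factors of 1.17 and 1.16. The factor grows with the mean and with the number of genes summed, so these sums were not compared with each other. Of single members, Gars had the largest in both lines, 1.83 and 1.78, on means of 5.07 and 4.11 UMIs.

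The cytosolic sum moved with the ATF4 list across cells. Spearman's correlation was 0.46 over 2323 B16F0 cells and 0.61 over 1502 B16F10 cells (Pearson 0.48 and 0.61), and these cells share a library and a depth. It was 0.43 within cycling and 0.49 within non-cycling cells of B16F0, and 0.60 and 0.64 in B16F10. The mitochondrial sum had 0.17 and 0.03 with the ATF4 list, and 0.21 and 0.09 with the cytosolic sum. Its lower count per cell limits any such value. No other summed list was correlated in this way, so the values of the cytosolic sum have no background beside them.

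By member, the correlation with the ATF4 list was highest for Gars in B16F0, at 0.39, and for Nars in B16F10, at 0.41. Eprs had 0.24 and 0.38, Gars 0.36 in B16F10, Nars 0.24 in B16F0, Wars 0.23 and 0.34, and Sars 0.14 and 0.34. The median of all other genes with at least 0.5 UMI per thinned cell was 0.05 over 4090 genes in B16F0 and -0.00 over 4352 genes in B16F10. Gars, Eprs, Sars and Nars had means of 3.01 to 5.07 UMIs, and a lower count per cell limits such a value. Qars was negative in both lines, at -0.24 and -0.14, and Kars in B16F10, at -0.13. Also at or below these medians were Iars at -0.01 and Farsb at 0.05 in B16F0, and Hars at -0.01 in B16F10. With the sum of the other cytosolic enzymes Qars had -0.10 and -0.09.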

How the data were processed

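Per the labels' protocols, the submitters made single-cell 3′ libraries of B16F0 and B16F10 with the 10x Chromium kit, 1 per line. The submitters' processing notes list Cell Ranger 3.0.0, Seurat 3.0 and build mm10 without saying what each did; filters are not stated there. The raw UMI counts that the authors deposited cover 14959 genes in 4156 cells, with a table of classes per cell (line, Cell_cycle, Cluster2, Monocle_State). Their natural log values were not used here.

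Counts were summed over all deposited cells of a group and scaled to CPM, with exact Poisson intervals; log2 ratios carry exact conditional binomial intervals and shares Clopper-Pearson intervals. No test was made, since cells of 1 library cannot stand as replicates. No doublet caller was run; an alternative dropped the deepest 5% of cells. Calls needed 1.5-fold, with a ratio of 5 to 4 beside it, and 10 CPM. For shares and correlations cells were thinned without replacement to 19718 UMIs, the lower of the 2 libraries' 10th percentiles, which left out 259 and 72 cells. The members and lists were chosen with earlier results of these data known. The naming rule gives full values for members past 1.5-fold and the 3 furthest in each direction per group, and in each other list the 3 with the largest ratio at 20 CPM; further members, all accounted for, and other genes were named after their values were seen. The B16F10 C4 against C5 comparison and the readings within shared classes were added after seeing the data. Clusters or states with under 50 cells of a line were left out.

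Gene positions came from GENCODE release M21 and promoters from the RefSeq table (GRCm38.p6). The windows of Aars are not reported here. The intervals and calls were checked on simulated Poisson counts, the model that the intervals assume, with changes larger than 1.5-fold. That check does not cover variation between cells or libraries, nor calls near 1.5-fold. Alternatives were TMM factors (edgeR 4.0.16), DESeq2 1.42.0 size factors, other totals, cells, minimums and folds. Sums and intervals used scipy 1.17.1 with numpy 2.4.6 in Python 3.11.15, figures matplotlib 3.10.9, and scaling factors R 4.3.3.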

Additional observations from a re-analysis of the deposited data

Results flagged for a closer look

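The cycling over non-cycling ratio of Wars, the tryptophan enzyme gene, went opposite ways in the 2 lines, at 0.11 in B16F0 and -0.21 in B16F10 on the log2 scale. The summed ATF4 programme genes without synthetases did so too, at 0.12 in B16F0, from 5059 to 5509 CPM, and -0.14 in B16F10, from 4573 to 4154 CPM. With 1 library per line the difference between the lines was not tested in either case. In B16F10 the cycling class holds both C4 and C5, whose ATF4 sums were 6419 and 3770.4 CPM.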

How the results depend on the processing

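Of 267 recomputed values of the main comparisons, 193 stayed inside the first value's counting interval (for counts, within 1.5 times) and 74 moved; of 1152 for single members, 937 stayed, 214 moved and 1 reversed. Readings within clusters and states, C4 over C5, and sums without Gars and Kars other than between the lines were chosen after seeing the data. The following are log2 ratios of sums or counts of members; the smaller fold is a ratio of 5 to 4, and the cause was not tested.

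Between the lines, the cytosolic sum was -0.19 (TMM), -0.20 (DESeq2), -0.11 (total without ribosomal protein and mitochondrially encoded genes, the reduced total), -0.060 (mean per cell), -0.11 (cycling), -0.075 (non-cycling), -0.12 (C3), 0.12 (C4), -0.33 (state 1), -0.19 (state 7) and -0.069 (without Gars and Kars). Higher members numbered 1 (non-cycling), 2 (C4) and 2 (smaller fold), and lower members 1 (TMM), 1 (DESeq2), 2 (C3), 1 (C4), 3 (state 1), 3 (state 7) and 4 (smaller fold). The mitochondrial sum was 0.043 (TMM), 0.038 (DESeq2), 0.020 (non-cycling), -0.080 (C3), 0.017 (C4), -0.11 (state 1) and -0.061 (state 7). Higher members there numbered 0 (non-cycling, C3, state 1, state 7, and at 20 CPM), 3 (C4), 2 (no CPM minimum) and 2 (smaller fold).

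For cycling over non-cycling cells in B16F0, the cytosolic sum was 0.010 (TMM), 0.00458 (DESeq2), -0.025 (reduced total) and -0.0077 (without Gars and Kars), with 2 higher and 1 lower at the smaller fold; the mitochondrial sum was 0.060 (reduced total). In B16F10, higher cytosolic members numbered 1 under TMM, DESeq2, the reduced total and without Gars and Kars, and lower ones 2 at the smaller fold. The sum was -0.11 (reduced total, which moves the median of all genes by -0.12), -0.028 (mean per cell) and -0.040 (without Gars and Kars). The mitochondrial sum was 0.12 (reduced total), with 2 (reduced total), 3 (no minimum), 0 (20 CPM) and 4 (smaller fold) members higher.

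For C4 over C5 in B16F10, the cytosolic sum was 0.32 (TMM), 0.32 (DESeq2), 0.49 (reduced total), 0.48 (cells of at most 8% mitochondrially encoded UMIs), 0.47 (without Gars and Kars) and 0.36 (without Wars). Higher members numbered 3 (TMM, DESeq2 and thinned cells) and 11 (smaller fold), and lower ones 4 (smaller fold) and 0 (without Gars and Kars). The mitochondrial sum was -0.15 (at most 8%), higher members 0 (at most 8%, and 20 CPM) and 2 (smaller fold), and lower ones 1 (reduced total, and 20 CPM). Vars2 reversed to -0.067 (at most 8%).

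Counting limits mitochondrial members most: in B16F10 C4, Yars2 had 52 UMIs. No paired analysis was possible because each line is 1 library with no replicate number, and no replicate was left out.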

Other observations

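Tarsl2, a relative of the threonine enzyme gene Tars, was in the fixed list of relatives and was singled out after its values were seen. It had 0 UMIs in 2582 B16F0 cells, where 3 counts over the library correspond to 0.0318 CPM. In B16F10 it had 69 UMIs in 66 of 1574 cells, 1.22 CPM (95% Poisson interval 0.946 to 1.54). The gene lies on chromosome 7 from 65644898 to 65692091 (GRCm38), and its end overlaps the start of Tm2d3, which begins at 65691169 on the same strand. Levels of Tm2d3 were 46.3 and 39.8 CPM in B16F0 and B16F10. Those of Tjp1 and Snrpa1, on the same chromosome, were 13.96 and 20.95 CPM, and 87.2 and 111 CPM. Pcsk6 lies between Tm2d3 and Snrpa1, and its level is not given here. No cause was tested.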
